A study of Mus musculus with 10 samples.

Results

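Potassium channel genes were taken as the gene symbols that start with Kcn and that had at least 100 UMIs over 10 single-cell RNA-seq libraries of mouse retinal ganglion cells (RGCs), where a UMI (unique molecular identifier) stands for 1 captured RNA molecule. Of 34254 genes in the files, 100 carried such a symbol and 64 of these reached the minimum. Another 36 fell short of it, and 4 of them (Kcna7, Kcne1, Kcne5 and Kcnj8) had 0 UMIs. Just inside the minimum were Kcnrg with 109 UMIs and Kcns1 with 139, and just outside were Kcnmb1 with 94, Kcnq1 with 73 and Kcng4 with 65. By symbol, the members were 5 Kcna, 2 Kcnb, 4 Kcnc, 3 Kcnd, 6 silent Kv (Kcng and Kcns), 4 Kcnq, 6 Kcnh, 7 Kcnj, 7 Kcnk, 2 Kcnt and 5 Kcnma, Kcnn and Kcnu genes, 10 auxiliary subunits (Kcnab, Kcnip, Kcnmb and Kcnrg), and 3 noncoding RNAs whose symbol only begins with Kcn.

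The mice were wild-type 129S1/SvImJ of both sexes at 12 weeks of age, and the study compared uninjured RGCs (6 libraries) with RGCs taken 2 weeks after optic nerve crush (ONC), which compresses the nerve and cuts RGC axons (4 libraries). Retinas were pooled, 10 to a batch, so no value belongs to 1 animal. Macrophages and amacrine cells were depleted, RGCs were captured on antibody to the surface protein Thy1 and, in the series text, by FACS, and 6000 cells a batch were loaded. The files held only cells that the authors had selected as RGCs, 1683 uninjured and 1609 injured (more injured cells than the study states), so cells lost before capture or selection were not measured.

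Library totals ran from 2839693 to 23180399 UMIs in the uninjured condition (median 5180793) and from 4698799 to 8860536 in the injured condition (median 6104973). Injured cells were shallower, with library medians of 11257 to 14695 UMIs per cell against 20437 to 34337 in uninjured libraries. The long noncoding RNA Malat1, which stays in the nucleus, took 6.09% to 8.01% of UMIs in injured and 1.72% to 4.88% in uninjured libraries. Depth and Malat1 share therefore moved with the condition, and their part in the results was not tested beyond the alternatives with cells at 1 depth and with cells in 1 Malat1 range. The Malat1 range of 3 to 5% left 495 uninjured and 260 injured cells, with only 7 in uninjured 5 and 8 in uninjured 6.

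Several libraries stood apart. Injured 3 and injured 4 shared 421 cell barcodes, while no other pair shared more than 1, and their counts differed by no more than sampling noise (median chi-square over noise 0.985, against 2.28 for injured 1 and 2). Their counts were averaged into a single sample, called injured 3/4, which leaves 1188 distinct injured cells and 3 injured samples. Xist, the RNA that coats the inactive X chromosome in female cells, was detected in 62.1% and 67.4% of cells in injured 1 and 2 and in at most 0.569% of cells in every other library, although the labels give both sexes. A transcript of the red fluorescent protein mCherry was detected in 7.99%, 15.0%, 86.0% and 84.3% of cells in injured 1 to 4 and in 0 uninjured cells, and the labels name no transgene, while the study used viral vectors that express mCherry in its regeneration experiments. Uninjured 5 and 6 differed from uninjured 1 to 4 by 11.1 to 21.2 times sampling noise, where the other uninjured pairs stayed between 1.47 and 4.13. Each sample's value is given below for the genes the results turn on, and counts are repeated without these libraries.

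Potassium channels let K+ leave or enter the cell along its gradient. Voltage-gated channels (Kcna, Kcnb, Kcnc, Kcnd, Kcnq and Kcnh) repolarize the membrane and set firing, inward rectifiers (Kcnj) and tandem-pore leak channels (Kcnk) hold the resting potential, and calcium- or sodium-activated channels (Kcnma, Kcnn and Kcnt) shape the afterhyperpolarization. Silent Kv subunits form no channel on their own and modify Kcnb channels, while auxiliary subunits (Kcnab, Kcnip and Kcnmb) bind the pore-forming proteins and change their gating or trafficking. RGCs send the output of the retina to the brain as action potentials along the optic nerve, and their axons carry clustered Kcna channels beside the nodes of Ranvier.

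Together the 64 members held 818051 UMIs, or 1.05% of all UMIs. Abundance was uneven, with 46.6% of the members' UMIs in Kcnip4 alone and 69.5% in the 5 most abundant members, and 18 members had fewer than 500 UMIs. Members were named by a rule on abundance, size of change and known role, and the others described here were chosen after their values were seen, among them Kcna4, Kcna6, Kcnc1, Kcnc4, Kcnd3, Kcng1, Kcnh5, Kcnh8, Kcnip3, Kcnj6, Kcnj9, Kcnk3, Kcns1 and Kcnt2. Levels are given as counts per 1000000 UMIs (CPM) after TMM scaling. The UMI shares above are pooled over all libraries, and the share of Kcnip4 differed by condition. Its mean was 5508 of 10774.5 CPM for the protein-coding members in uninjured samples, and 1933 of 6410 CPM in injured samples. A UMI is counted once per molecule, so CPM of different genes are compared without dividing by transcript length. Whether reads in introns were counted is not stated beyond the default alignment parameters that the study gives. Whether CPM of different genes followed gene length was not tested.

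Among the 63 members tested (Kcnrg fell below the filter on low counts), 42 passed an adjusted p of 0.05 over 14234 genes, which is 66.7% of the members against 44.0% of all genes. They were mostly lower after ONC: 36 members (57.1%) were lower, against 22.7% of all genes, and 6 (9.52%) were higher, against 21.3% of all genes. The 6 higher members were Kcnab1, Kcnmb2, Kcnma1, Kcnk12, Kcnt2 and Kcnk2. The median log2 fold change of the tested members was -0.84, beside -0.03 over all tested genes, with 48 members below 0, 29 under -1 and 5 over 1. This comparison asked which K+ channel genes RGCs express differently once their axons are cut. With Kcns1, which had 0 injured UMIs, at its bound the median stayed at -0.84. Counts were summed over cells, so the sums do not separate fewer cells of an RGC subtype from less RNA per cell, which was not tested. Members had to reach a minimum of UMIs summed over all libraries, and uninjured libraries held most of the UMIs. The minimum could therefore favour members that were lower after ONC, and its part in their share was not tested. With at least 10 counts required in every sample, 24 of 43 tested members were lower and 4 were higher. Of all genes tested in that way, 22.5% were lower and 19.4% higher.

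Every injured sample lay below every uninjured sample in 32 members, or 50.8% of those tested, beside 21.1% of all tested genes. The reverse held in 8 members, of which 7 were tested (11.1%, beside 21.9% of all tested genes). In the other 24 members the conditions overlapped. For a gene whose conditions did not overlap, the exact two-sided permutation test over 6 against 3 samples gave p = 0.0238, the smallest that its 84 arrangements can give. That test takes the samples as independent. Uninjured 1 and 2, 3 and 4, and 5 and 6 were closer to each other (1.82, 1.87 and 1.47 times sampling noise) than other uninjured pairs. With similar libraries summed, 32 members passed the edgeR threshold (27 lower, 5 higher), among 4181 of all genes. Without injured 3/4, 33 members passed the threshold (28 lower, 5 higher), and with injured 3/4 as the only injured sample, 27 passed (24 lower, 3 higher), among 5075 and 3160 of all genes. For 41 of the 42 members the direction held in every alternative that tested them, with Kcnb2 as the exception. In every alternative that tested them, 21 lower and 3 higher members (Kcnab1, Kcnk12 and Kcnma1) passed. Some rare members were not tested in all 26 alternatives, such as Kcng1, which was tested in 21. The share of all genes that passed in every alternative was not computed.

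**Figure D1:**
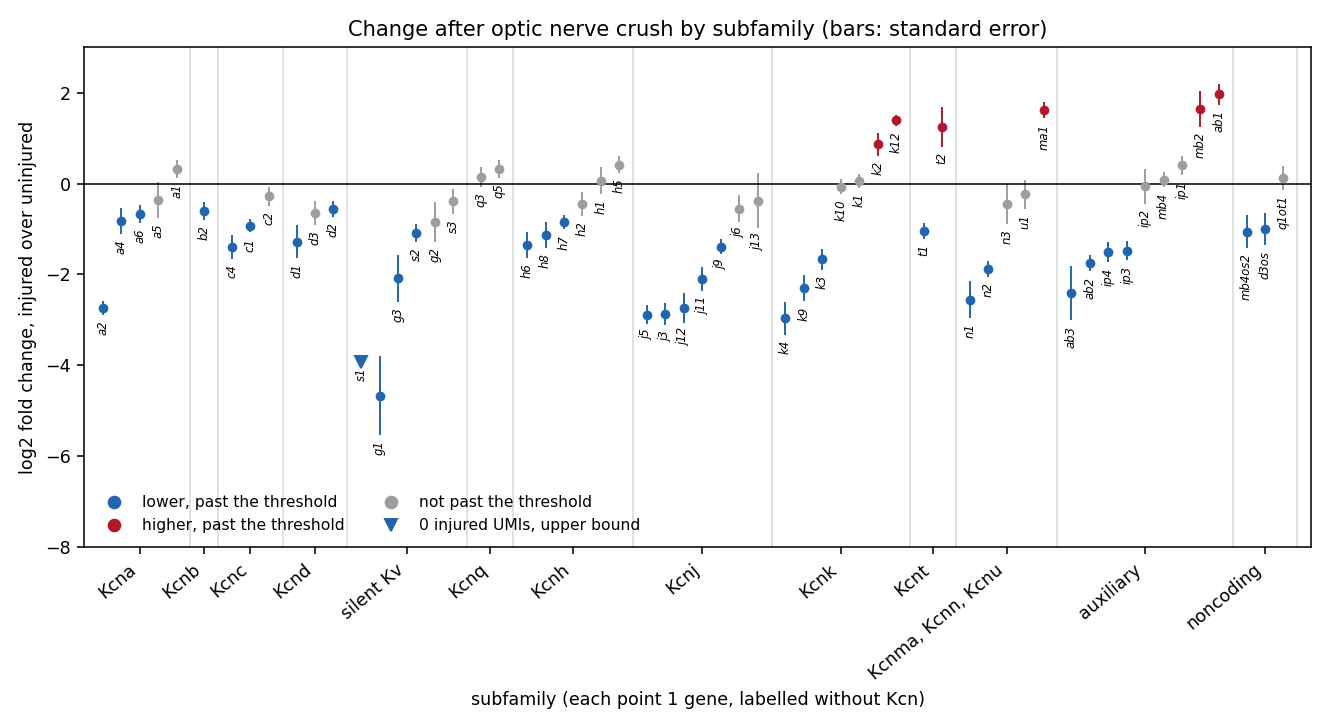
Log2 fold change (injured over uninjured, 6 against 3 samples) of 59 of the 63 tested potassium channel genes by subfamily, with standard errors as bars and Kcns1 at the upper bound that 0 injured UMIs allow (-3.93). Of the 7 Kcnj genes 5 were lower and 0 higher, whereas the 7 Kcnk genes included 3 lower and 2 higher. Among all tested members 57.1% were lower and 9.52% higher, and among all tested genes 22.7% and 21.3%.

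Summed CPM differed in direction between subfamilies. Kcnj genes summed to 223 ± 45.9 CPM uninjured and 74.9 ± 12.9 CPM injured, and Kcna genes to 308 ± 36.7 CPM uninjured and 141 ± 2.64 CPM injured. Kcnd genes gave 929.6 ± 154 CPM uninjured and 626 ± 82.5 CPM injured, and Kcnc genes 879.8 ± 145 CPM uninjured and 632 ± 67.5 CPM injured. Kcnq and Kcnk sums stayed close, at 323 ± 37.8 CPM uninjured and 319 ± 38.4 CPM injured for Kcnq, and 155 ± 10.7 CPM uninjured and 165 ± 6.80 CPM injured for Kcnk. The Kcnma, Kcnn and Kcnu sum was higher after ONC, at 527 ± 94.2 CPM uninjured and 1017 ± 106 CPM injured, where the mean of Kcnma1 alone was 312 and 954 CPM. The 51 pore-forming members together gave 4839 ± 683 CPM uninjured and 4007 ± 373 CPM injured, and without Kcnma1 4528 ± 627 CPM uninjured and 3053 ± 277 CPM injured. These sums are descriptions, can follow their most abundant gene, and were not tested.

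Kcna and Kcnab genes encode the Shaker-related channels that sit beside the nodes of Ranvier and the cytoplasmic beta subunits bound to them. Of 5 Kcna members, 3 were lower, 0 were higher and 2 did not pass, beside 57.1% lower among all tested members and 22.7% among all genes. Kcna2, the main axonal subunit of this family, ran from 138 to 187 CPM in uninjured samples (median 169) and was 24.0, 22.9 and 27.1 CPM in injured 1, 2 and 3/4. All 3 injured samples lay far below the uninjured range, and the injured samples were close to each other. Kcna2 fell by 2.73 ± 0.16 (SE) on the log2 scale, 6.66-fold on the ratio of means (adjusted p = 1.42e-07). Its usual partner Kcna1 ran from 31.5 to 55.8 CPM in uninjured samples (median 37.1) and was 44.5, 48.3 and 62.0 CPM in the injured samples, so the conditions overlapped (log2 fold change 0.32 ± 0.20, adjusted p = 0.203). The ratio of Kcna1 to Kcna2 CPM was 0.249 ± 0.0502 in uninjured and 2.08 ± 0.218 in injured samples. The exact two-sided permutation test gave p = 0.167 for Kcna1.

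Kcna4 and Kcna6 also passed the threshold, at log2 fold changes of -0.82 and -0.67, but overlapped between conditions. They passed in 17 of 26 and 22 of 26 alternatives, with adjusted p from 4.91e-06 to 0.273 for Kcna4 and from 0.00350 to 0.988 for Kcna6. In cells with 3 to 5% Malat1 the log2 fold change of Kcna6 was -0.01. Without injured 3/4 neither passed, and Kcna4 also failed to pass without any 1 of uninjured 1 to 4 or injured 1 or 2. Kcna4, a rapidly inactivating subunit, was 11.2 and 10.4 CPM in uninjured 5 and 6, level with the injured values of 11.4, 10.8 and 10.5 CPM, and 21.1 to 26.4 CPM in uninjured 1 to 4. Against uninjured 1 and 2, 3 and 4, and 5 and 6, the mean log2 difference of Kcna4 was -1.10, -1.02 and 0.01. Kcna6 overlapped through a single pair of values, 58.0 CPM in uninjured 2 and 58.2 CPM in injured 2. Kcna5 stayed below 5 CPM in both conditions and did not pass.

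The 3 beta subunits split. Kcnab2, which clusters axonal Kcna channels, ran from 115 to 179 CPM in uninjured samples (median 124) and was 38.3, 36.2 and 45.8 CPM in injured 1, 2 and 3/4. Kcnab1, which speeds inactivation of Kcna channels, ran from 25.4 to 54.5 CPM in uninjured samples (median 41.5) and was 186, 154 and 142 CPM. Neither gene overlapped between conditions: every injured sample was below the uninjured range for Kcnab2 and above it for Kcnab1. Kcnab2 fell by 1.75 ± 0.18 on the log2 scale (adjusted p = 1.22e-05) and Kcnab1 rose by 1.97 ± 0.23 (adjusted p = 3.43e-05), and both passed in all 26 alternatives. The ratio of Kcnab1 to Kcnab2 CPM was 0.315 ± 0.124 in uninjured and 4.08 ± 0.894 in injured samples, and Kcnab2 was the more abundant of the pair in every uninjured sample and Kcnab1 in every injured sample. Kcnab3 was 73.4 and 73.9 CPM in uninjured 5 and 6 but 11.1 to 29.4 CPM in uninjured 1 to 4, against 7.70, 8.31 and 5.91 CPM in injured samples. The conditions still did not overlap, and Kcnab3 fell by 2.41 ± 0.59 on the log2 scale (adjusted p = 0.00619). Its mean log2 difference was -0.96, -1.81 and -3.26 against uninjured 1 and 2, 3 and 4, and 5 and 6, and with injured 3/4 as the only injured sample its adjusted p was 0.121, within a range of 3.52e-05 to 0.121 over the alternatives.

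Proteins that hold Kcna channels at the axon were read from a list of 26 channel partners, of which 22 were tested. Cntnap2 and Cntn2, the adhesion pair that anchors Kcna channels beside the node, were higher, with Cntnap2 at 5037, 5079 and 4222 CPM in the injured samples and 1336 to 1826 CPM in uninjured samples (median 1500.4). Cntnap2 rose by 1.64 ± 0.17 on the log2 scale (adjusted p = 1.13e-05) and Cntn2 rose by 1.17 ± 0.15 (adjusted p = 7.85e-05), which did not pass in cells thinned to 8000 UMIs. Lower were Lgi1 (-2.09) and Lgi3 (-2.72), secreted ligands of the Kcna-associated receptors Adam22 (-0.79) and Adam23, and Cntnap1 (-1.87), which seals the paranode. Adam23 did not pass (log2 fold change -0.22 ± 0.13). In the same samples, Kcna2 and Kcnab2 were lower while Cntnap2 and Cntn2 were higher.

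**Figure D2:**
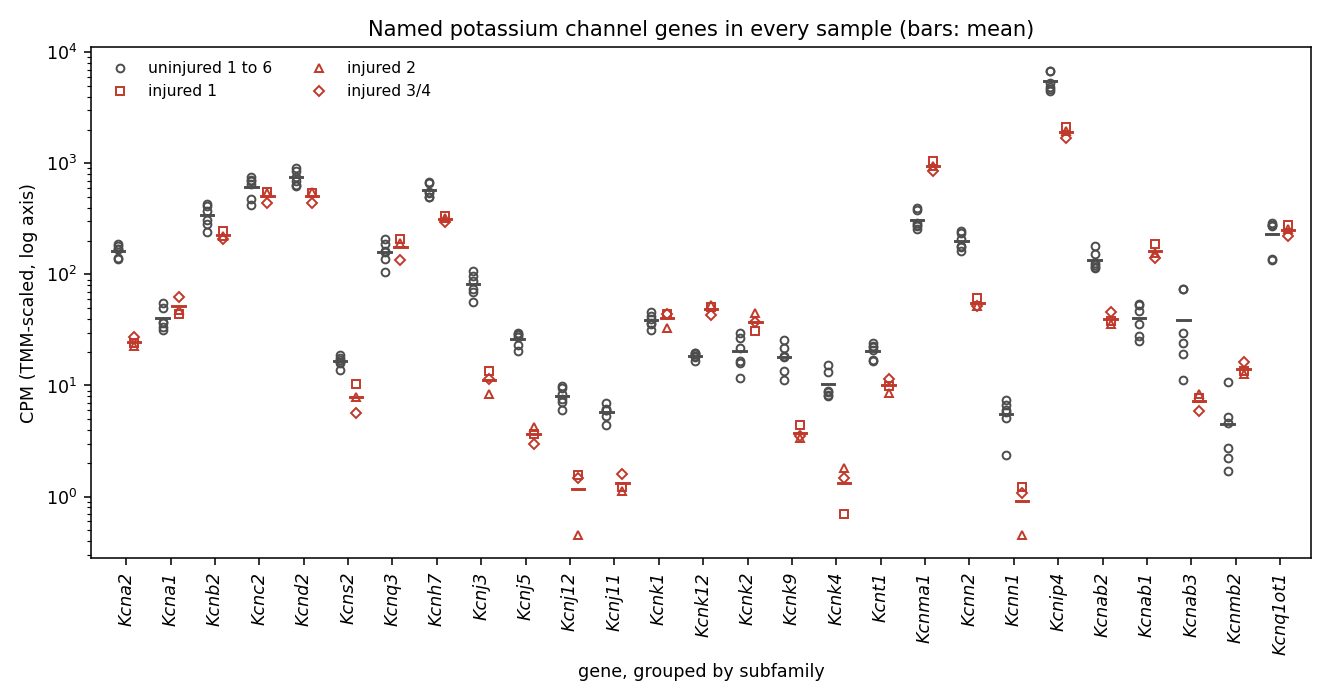
CPM (TMM-scaled, log axis) of 27 named members in the 6 uninjured samples (grey circles) and in injured 1 (squares), injured 2 (triangles) and injured 3/4 (diamonds), with the mean of each condition as a bar. Kcna2 sits between 22.9 and 27.1 CPM in the injured samples, below every uninjured sample, and Kcnma1 between 852 and 1056 CPM, above every uninjured sample.

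Kcnb2 encodes a delayed rectifier that clusters on the soma and proximal dendrites. It ran from 242 to 429 CPM in uninjured samples (median 341) and was 247, 224 and 208 CPM, so injured 1 lay just above the lowest uninjured sample. Kcnb2 fell by 0.60 ± 0.20 on the log2 scale (adjusted p = 0.0279) and passed in 17 of 26 alternatives, with adjusted p from 0.000206 to 0.985. In cells with 3 to 5% Malat1 its log2 fold change was 0.01, on the other side of 0, and it did not pass without any 1 of uninjured 2, 3 and 4 or injured 1 and 2, or without injured 3/4. Among proteins that bind Kcnb channels, Amigo1 was lower (-1.27), as was Vapb (-0.55), which tethers them to the endoplasmic reticulum, while its paralog Vapa did not pass (-0.14 ± 0.27).

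Silent Kv subunits, which assemble only with Kcnb proteins, were rare. Lower were 4 of 6, beside 57.1% of all tested members and 22.7% of all tested genes. Kcns2, the most abundant, ran from 13.7 to 18.9 CPM in uninjured samples (median 16.6) and was 10.3, 7.86 and 5.64 CPM in the injured samples, all below the uninjured range. It fell by 1.08 ± 0.20 on the log2 scale (adjusted p = 0.000951), but did not pass in cells with 3 to 5% Malat1 (adjusted p = 0.117, highest of a range from 9.42e-06). Kcns1 had 139 UMIs in uninjured libraries and 0 in injured libraries. With a floor of 3 counts over the injured samples, or 0.170 CPM, Kcns1 was at least 15.2-fold lower. Kcng1 had 181 UMIs in uninjured samples and 2 counts over the 3 injured samples (3 UMIs before averaging), a pooled ratio of 0.0339 with a 95% exact counting interval of 0.00407 to 0.124. Kcng3 fell by 2.09 ± 0.52 on the log2 scale at 2.45 CPM uninjured, and Kcng2 (-0.84 ± 0.44) and Kcns3 (-0.39 ± 0.27) did not pass. Counting intervals and floors cover counting error only.

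Kcnc channels open and close quickly and allow fast firing. Kcnc2, the most abundant of them, ran from 425 to 756 CPM in uninjured samples (median 675) and was 550.5, 539.8 and 442 CPM in injured 1, 2 and 3/4. The injured values lay inside the uninjured range, and Kcnc2 did not pass (log2 fold change -0.28 ± 0.21, adjusted p = 0.304, range 0.00108 to 0.646 over the alternatives, of which 4 passed). Kcnc1 and Kcnc4 were lower without overlap. Kcnc1 ran from 146 to 199.6 CPM in uninjured samples (median 156) and was 89.6, 86.2 and 87.5 CPM, and fell by 0.93 ± 0.15 on the log2 scale (adjusted p = 0.000322). Kcnc4 fell by 1.40 ± 0.26 (adjusted p = 0.000947). Over all samples Kcnc2 held 73.1% of the summed Kcnc CPM.

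Kcnd channels carry the A-type current, which inactivates rapidly and delays firing, and Kcnip and Dpp proteins are their auxiliary subunits. Kcnd2 ran from 631 to 902 CPM in uninjured samples (median 727) and was 538, 557 and 436 CPM in injured 1, 2 and 3/4. The injured samples lay below all uninjured samples, and Kcnd2 fell by 0.55 ± 0.17 on the log2 scale (adjusted p = 0.0218). It passed in 20 of 26 alternatives, with adjusted p from 0.000620 to 0.128: without injured 3/4 it was 0.124, without injured 1 it was 0.0585 and with cells thinned to 8000 UMIs it was 0.0839. Nor did Kcnd2 pass in cells without markers of another class, with similar libraries summed, or with injured 3/4 as the only injured sample. Kcnd3 did not pass (-0.65 ± 0.26), with uninjured 5 and 6 at 119 and 109 CPM beside 190.1 to 228 CPM in uninjured 1 to 4. Kcnd1 was lower at a mean under 5 CPM in both conditions (-1.28), but not without injured 1 or without injured 2.

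Kcnip4, a calcium-binding subunit of Kcnd channels and the most abundant member by far, ran from 4500.1 to 6846 CPM in uninjured samples (median 5122) and was 2132, 1977 and 1689.7 CPM. The conditions did not overlap, and Kcnip4 fell by 1.51 ± 0.22 on the log2 scale, 2.85-fold on the ratio of means (adjusted p = 0.000158), passing in all 26 alternatives. Kcnip3, which also acts as a transcriptional repressor, fell by 1.47 ± 0.21 (adjusted p = 0.000153). Kcnip1 (0.40 ± 0.21) and Kcnip2 (-0.06 ± 0.38) did not pass, and Kcnip1, at 162 ± 44.8 to 215 ± 16.9 CPM, was the second most abundant Kcnip gene. Auxiliary members summed to 5935 ± 1065 CPM uninjured and 2403 ± 244 CPM injured, and to 427 ± 70.4 CPM uninjured and 469.8 ± 28.8 CPM injured without Kcnip4. Of the 2 Dpp proteins that traffic Kcnd channels to the surface, Dpp10 was 206 to 413 CPM in uninjured samples (median 355) and 62.7, 49.4 and 24.4 CPM in injured samples. Dpp10 fell by 2.93 ± 0.32 (adjusted p = 2.13e-05), whereas Dpp6 overlapped between conditions and did not pass (0.04 ± 0.19).

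Kcnq channels carry the M-current, a slow current that closes with muscarinic input and restrains repeated firing at the axon initial segment. Kcnq3 ran from 105 to 211 CPM in uninjured samples (median 161) and was 208, 191 and 135 CPM, with overlap, and did not pass (0.15 ± 0.21, adjusted p = 0.612). Kcnq5 did not pass either (0.32 ± 0.19). Ank3, the scaffold that holds Kcnq channels at the initial segment, did not pass (0.26 ± 0.18), and Sptbn4, the spectrin bound to it, was lower (-0.52).

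The 6 Kcnh members, ether-a-go-go related channels, divided evenly into 3 lower and 3 that did not pass. Among all tested members 57.1% were lower, and among all tested genes 22.7%. Kcnh7 was the most abundant, at 494 to 679.6 CPM in uninjured samples (median 549) and 338, 322 and 296 CPM in injured 1, 2 and 3/4, with no overlap. It fell by 0.85 ± 0.16 on the log2 scale (adjusted p = 0.00118) and passed in all 26 alternatives. Kcnh5 was the only tested member whose conditions did not overlap although the fit did not pass it: 168 to 278 CPM in uninjured samples (median 258) against 317, 337 and 294 CPM, a log2 fold change of 0.42 ± 0.18 (adjusted p = 0.0820, range 0.0140 to 0.505 over the alternatives). It passed in 4 of 26 alternatives, as higher in 3 and, in cells with 3 to 5% Malat1, as lower (-0.51). Kcnh8 fell by 1.13 ± 0.28 (adjusted p = 0.00656), and its mean log2 difference was -1.63, -1.08 and -0.51 against uninjured 1 and 2, 3 and 4, and 5 and 6. Kcnh6 was lower at a mean under 5 CPM (-1.35). Kcnh1 (0.07 ± 0.29) and Kcnh2 (-0.44 ± 0.26) did not pass.

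Among members that passed with a mean of at least 5 CPM in the higher condition, inward rectifiers held 4 of the 10 largest log2 falls. Of the 7 Kcnj members 5 were lower, beside 57.1% of all tested members and 22.7% of all tested genes. Kcnj3 and Kcnj5 encode subunits of the channel that G proteins open downstream of inhibitory receptors, and Kcnj6 and Kcnj9 encode the other subunits of that channel. Kcnj3 ran from 56.6 to 108 CPM in uninjured samples (median 80.9) and was 13.5, 8.31 and 11.5 CPM in injured 1, 2 and 3/4. Kcnj5 ran from 20.6 to 29.9 CPM in uninjured samples (median 27.9) and was 3.68, 4.27 and 2.95 CPM. For both genes the highest injured sample lay well under the lowest uninjured sample. Kcnj3 fell by 2.88 ± 0.25 and Kcnj5 fell by 2.88 ± 0.20 on the log2 scale (adjusted p = 3.13e-06 and 5.91e-07). Kcnj9 fell by 1.38 ± 0.17 (adjusted p = 5.34e-05), while Kcnj6 did not pass (-0.55 ± 0.30), with uninjured 5 and 6 at 35.3 and 34.4 CPM inside the injured range of 31.4 to 53.6. Kcnj3 was the most abundant of these genes in uninjured samples (82.2 ± 19.2 CPM) and Kcnj6 in injured samples (41.0 ± 11.4 CPM).

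Kcnj12, a classical strong inward rectifier, ran from 6.06 to 9.95 CPM in uninjured samples (median 7.98) and was 1.58, 0.449 and 1.48 CPM. It fell by 2.74 ± 0.33 on the log2 scale (adjusted p = 3.88e-05). Kcnj11, the pore of the ATP-sensitive channel that couples metabolism to excitability, ran from 4.38 to 7.01 CPM in uninjured samples (median 6.06) and was 1.23, 1.12 and 1.61 CPM. Neither gene overlapped, both were rare after ONC, and Kcnj11 fell by 2.10 ± 0.26 (adjusted p = 5.68e-05). Abcc8, the sulfonylurea receptor around that pore, was lower with overlap (-0.62 ± 0.23, adjusted p = 0.0474), but passed in only 12 of 26 alternatives. Kcnj13 did not pass (-0.38 ± 0.60).

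To show the sequence in front of members that moved together or apart, the 250 bases upstream of the annotated start of each member's reference transcript were read from the mouse genome (build GRCm39), which gave windows for 61 members. Windows are printed for 2 members that fell, Kcnj5 and Kcnj11, and for 1 that rose, Kcnmb2, chosen after their values were seen because these windows hold no annotated exon. They lie at chr9:32255692-32255941 on the minus strand, chr7:45749662-45749911 on the minus strand, inside the annotated span of the gene, and chr3:31956406-31956655 on the plus strand. Capitals mark CpG dinucleotides and the GC box.

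Kcnj5 promoter window: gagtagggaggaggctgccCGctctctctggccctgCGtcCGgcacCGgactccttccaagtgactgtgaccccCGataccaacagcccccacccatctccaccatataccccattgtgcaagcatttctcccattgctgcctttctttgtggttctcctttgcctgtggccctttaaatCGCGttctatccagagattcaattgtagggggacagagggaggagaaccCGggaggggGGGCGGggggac
Kcnj11 promoter window: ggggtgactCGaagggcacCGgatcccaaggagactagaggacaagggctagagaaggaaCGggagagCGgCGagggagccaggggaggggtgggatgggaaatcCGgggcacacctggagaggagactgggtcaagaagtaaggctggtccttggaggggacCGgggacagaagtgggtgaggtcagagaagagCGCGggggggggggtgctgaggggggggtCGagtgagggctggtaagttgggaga
Kcnmb2 promoter window: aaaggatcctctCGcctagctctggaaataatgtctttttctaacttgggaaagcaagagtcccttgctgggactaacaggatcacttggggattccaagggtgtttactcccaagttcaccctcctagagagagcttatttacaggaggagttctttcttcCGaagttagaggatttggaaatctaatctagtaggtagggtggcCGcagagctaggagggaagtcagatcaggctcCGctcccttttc

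Kcnj11 held 10 CpG, Kcnj5 9 and Kcnmb2 4, beside a median of 13 in the windows of 12324 tested genes and 11 in those of the 60 tested members with a window. Motifs were searched on both strands. The GC box (GGGCGG) stood in 30 of the 60 member windows (50%) and in 49.7% of tested genes, with 16 of 34 lower members (47.1%) and 2 of 6 higher members (33.3%) holding it. The AP-1 letters TGANTCA were in 0 of the 60 member windows and in 4.37% of tested genes, and the CRE letters TGACGTCA in 0 and 2.17%. A match of letters is no binding site, and a missing match says only that the letters are not in this window. GC boxes contain a CpG, so these counts overlap.

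Tandem-pore leak channels (Kcnk) moved in both directions. Kcnk4, a leak channel opened by membrane stretch and lipids, ran from 8.02 to 15.3 CPM in uninjured samples (median 8.85) and was 0.700, 1.80 and 1.48 CPM in injured 1, 2 and 3/4, without overlap. Kcnk9, an acid-sensitive leak channel, ran from 11.1 to 25.8 CPM in uninjured samples (median 18.4) and was 4.38, 3.37 and 3.49 CPM. Its injured samples were all below the uninjured range as well. Kcnk4 fell by 2.96 ± 0.36 and Kcnk9 fell by 2.31 ± 0.29 on the log2 scale (adjusted p = 4.46e-05 and 5.32e-05), and Kcnk3, the other acid-sensitive member, fell by 1.66 ± 0.23 (adjusted p = 0.000109).

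In the other direction, Kcnk12, a tandem-pore subunit that gives little current on its own, ran from 16.6 to 19.7 CPM in uninjured samples (median 18.9) and was 50.8, 53.0 and 43.0 CPM after ONC. Kcnk2, which like Kcnk4 opens with stretch, ran from 11.8 to 29.7 CPM in uninjured samples (median 19.1) and was 30.8, 44.7 and 37.1 CPM. In both genes every injured sample was above every uninjured one, though for Kcnk2 injured 1 was close to uninjured 2. Kcnk12 rose by 1.40 ± 0.12 on the log2 scale (adjusted p = 2.52e-06) and passed in all 26 alternatives. Kcnk2 rose by 0.86 ± 0.25 (adjusted p = 0.0149), and without injured 2 its adjusted p was 0.0753, within a range of 0.00135 to 0.159. Of the 3 stretch-activated leak channels, Kcnk4 was lower and Kcnk2 higher, while Kcnk10 did not pass (-0.07 ± 0.17). The Kcnk gene with the highest mean CPM was Kcnk1 in uninjured samples and Kcnk12 in injured samples (48.9 CPM). Kcnk1 overlapped at 38.6 ± 5.12 to 40.3 ± 6.34 CPM and did not pass (0.06 ± 0.15).

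Kcnma1 encodes the large-conductance channel opened by both calcium and voltage, and it was the most abundant member to rise. It ran from 256 to 399 CPM in uninjured samples (median 283) and was 1056, 955 and 852 CPM in injured 1, 2 and 3/4. The lowest injured sample was above the highest uninjured sample. Kcnma1 rose by 1.61 ± 0.17 on the log2 scale, 3.06-fold on the ratio of means (adjusted p = 1.81e-05), and passed in all 26 alternatives. Among pore-forming members it held 6.42 ± 0.524% of summed CPM in uninjured and 23.8 ± 0.740% in injured samples, and ranked 5 and 1 by mean CPM. Kcnd2 ranked 1 and 3 (15.5% and 12.7%), Kcnc2 ranked 2 in both (12.7% and 12.7%), and Kcna2 10 and 23 (3.45% and 0.623%). Ranks 1 to 3 in uninjured samples (Kcnd2, Kcnc2 and Kcnh7) were 748 ± 112, 618 ± 136 and 572 ± 80.5 CPM.

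Kcnmb2, an auxiliary subunit that makes Kcnma1 channels inactivate, ran from 1.68 to 10.7 CPM in uninjured samples (median 3.64) and was 13.5, 12.8 and 16.1 CPM. Uninjured 2 was the highest uninjured sample and still below the injured ones. Kcnmb2 rose by 1.65 ± 0.40 on the log2 scale (adjusted p = 0.00539), but in cells with 3 to 5% Malat1 the log2 fold change was 0.63 and the adjusted p 0.457, in a range of 6.59e-05 to 0.457. Kcnmb4, the neuronal beta subunit, did not pass (0.09 ± 0.17), and Lrrc55, a gamma subunit of the same channel, was lower (-2.76, 9.66 ± 2.94 to 1.42 ± 0.312 CPM).

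Small-conductance channels (Kcnn) open with calcium alone and produce the slower afterhyperpolarization. Kcnn2, the most abundant of them, ran from 163 to 246 CPM in uninjured samples (median 194) and was 61.6, 51.9 and 51.8 CPM in injured 1, 2 and 3/4. Kcnn1 ran from 2.36 to 7.48 CPM in uninjured samples (median 5.87) and was 1.23, 0.449 and 1.07 CPM. Neither gene overlapped, and the injured values of Kcnn1 were near the limit of detection. Kcnn2 fell by 1.87 ± 0.18 and Kcnn1 fell by 2.55 ± 0.40 on the log2 scale (adjusted p = 6.05e-06 and 0.000322), and Kcnn3 did not pass (-0.46 ± 0.44). Kcnma1 and Kcnn2, both opened by calcium, therefore moved in opposite directions. The sodium-activated channel Kcnt1 ran from 16.7 to 24.0 CPM in uninjured samples (median 21.6) and was 9.98, 8.53 and 11.5 CPM, without overlap, and fell by 1.04 ± 0.18 (adjusted p = 0.000515). Its adjusted p was 0.187 in cells with 3 to 5% Malat1, in a range of 2.07e-06 to 0.187. Its paralog Kcnt2 rose by 1.25 ± 0.43 (adjusted p = 0.0353) at a mean under 5 CPM in both conditions and passed in 17 of 23 alternatives, but not without any 1 of injured 1, 2 and 3, with adjusted p from 0.0150 to 0.207, and Kcnu1 did not pass (-0.24 ± 0.33).

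Of 3 noncoding members, Kcnq1ot1, an antisense RNA that silences its imprinted neighbours, was the only abundant one. It ran from 135 to 288 CPM in uninjured samples (median 275) and was 281, 257 and 222 CPM. Uninjured 5 and 6, at 139 and 135 CPM, stood apart from every other sample, and the gene did not pass (0.13 ± 0.26, adjusted p = 0.729). Kcnd3os and Kcnmb4os2 were lower at a mean under 5 CPM, and passed in 9 of 21 and 14 of 23 alternatives. A mean under 5 CPM in both conditions was found for 15 members, and 9 of them passed the threshold.

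Shares of cells with at least 1 UMI were read with each cell thinned to 8000 UMIs, which kept 1654 uninjured and 1376 injured cells, and are given as mean ± SD over samples without a test. Kcna2 was found in 69.4 ± 3.42% of uninjured cells and 14.5 ± 2.32% after ONC at 8000 UMIs (94.3% and 23.9% at full depth). Kcnn2 was found in 68.6 ± 4.45% of uninjured cells and 23.6 ± 0.789% after ONC at 8000 UMIs (89.1% and 32.0% at full depth). For Kcnab2 the share was 62.5 ± 5.69% of uninjured cells and 21.8 ± 3.12% after ONC at 8000 UMIs (91.9% and 35.7% at full depth). These 3 members showed the largest drops of a thinned share among the 64 members.

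Kcnj3 was found in 38.2 ± 6.41% of uninjured cells and 5.00 ± 0.224% after ONC at 8000 UMIs (64.4% and 7.77% at full depth). Kcnip4 was found in 82.0 ± 11.0% of uninjured cells and 69.9 ± 2.59% after ONC at 8000 UMIs (87.6% and 74.0% at full depth). Most injured cells therefore still held Kcnip4 UMIs, at lower CPM. Among the risers, Kcnma1 was found in 82.4 ± 6.53% of uninjured cells and 97.3 ± 2.10% after ONC at 8000 UMIs (95.4% and 98.6% at full depth). Kcnab1 was found in 15.0 ± 5.01% of uninjured cells and 32.9 ± 2.07% after ONC at 8000 UMIs (29.1% and 39.9% at full depth), and Kcnk12 in 13.3 ± 1.69% of uninjured cells and 29.9 ± 3.51% after ONC at 8000 UMIs (36.7% and 47.2% at full depth). For Kcnk2 the shares were 9.92 ± 2.35% of uninjured cells and 20.1 ± 2.34% after ONC at 8000 UMIs (18.7% and 29.4% at full depth). Kcnc2 and Kcnh5, which did not pass on CPM, were found in 91.0% and 76.1% of uninjured and 85.7% and 76.9% of injured cells at 8000 UMIs. Thinning moved most shares, so shares at full depth also carry the difference in depth between conditions.

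**Figure D3:**
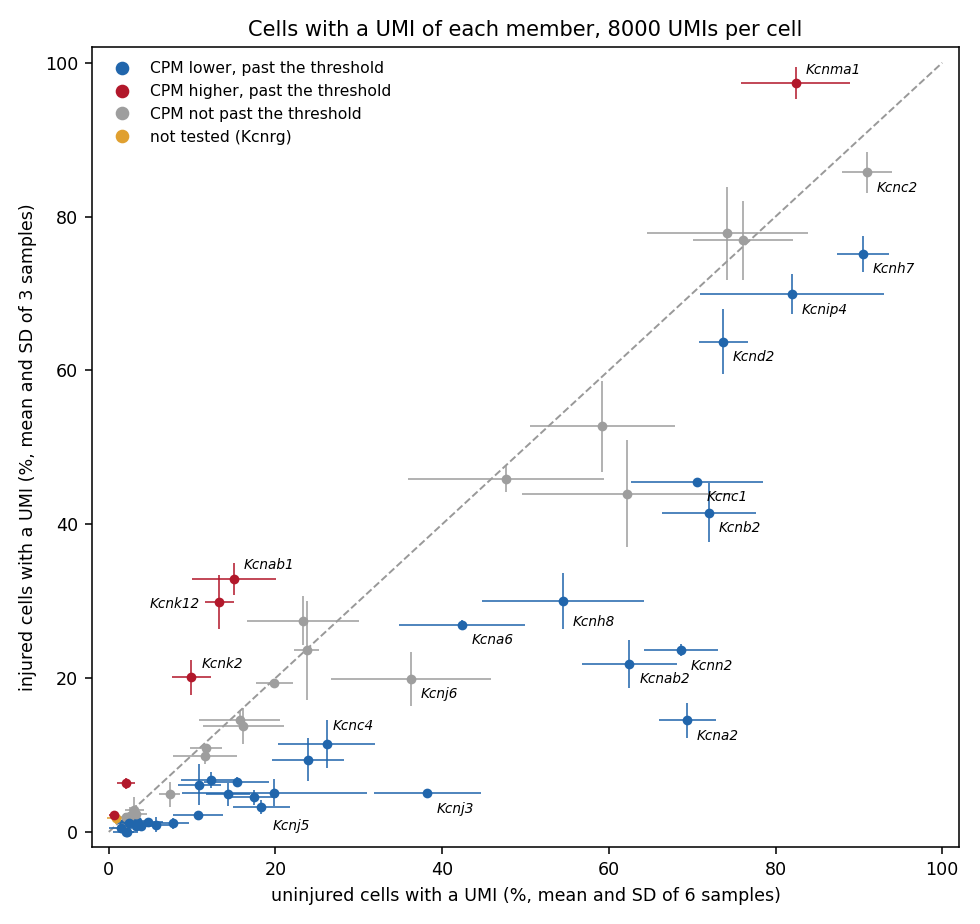
Share of cells with a UMI of each of 60 of the 64 members in uninjured (x axis, 6 samples) and injured cells (y axis, 3 samples), both in percent with each cell thinned to 8000 UMIs, as means with SD bars, and the dashed line marking equal shares. Kcna2 (69.4% against 14.5%) and Kcnn2 (68.6% against 23.6%) lie far below the line, and Kcnma1 (82.4% against 97.3%) and Kcnab1 (15.0% against 32.9%) above it.

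Members detected per cell were counted among the 61 protein-coding members. At 8000 UMIs the median cell had 17.1 ± 1.36 of them in uninjured and 11.7 ± 0.577 in injured samples. Uninjured (16 to 19) and injured samples (11 to 12) did not overlap. At full depth the medians were 27.2 ± 2.96 and 14.8 ± 0.289. The median number of all genes detected per cell at full depth was 5712 to 7127 in uninjured and 4043 to 4604 in injured libraries. That number was not taken at 8000 UMIs. UMIs of the protein-coding members per thinned cell had a median of 69.7 ± 21.0 in uninjured and 42.9 ± 7.07 in injured samples. Without Kcnip4 these were 38.6 ± 7.59 and 33.0 ± 5.29. Without Kcnip4 the sample ranges overlapped, at 32 to 49.5 and 27 to 37. The deposited cells held no cell type that should lack these genes, so no background share from free RNA can be given for them. As a reference, Kcnj10, the inward rectifier of Müller glia, was found in 0.0715% of uninjured cells and 0 injured cells at full depth.

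Gene length differed between members that rose and fell. By their annotated span from first to last base (GENCODE annotation on GRCm39), the 6 higher members had a median length of 333 kb, the 36 lower members 35.4 kb and the 21 that did not pass 119 kb, against 28.2 kb over all tested genes. Of 23 tested members over 100 kb, 7 were lower and 5 higher, with a median log2 fold change of -0.07. Of 40 members of 100 kb or less, 29 were lower and 1 (Kcnk12) was higher, with a median of -1.29. Over all tested genes the classes differed little: 24.3% lower and 25.9% higher over 100 kb (median 0.04), and 22.2% lower and 20.3% higher at 100 kb or less (median -0.04). The split was chosen after the members' values were seen and was not tested, and long exceptions such as Kcnip4 (1135 kb), Kcnn2 (417 kb) and Kcnj3 (162 kb) were lower.

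**Figure D4:**
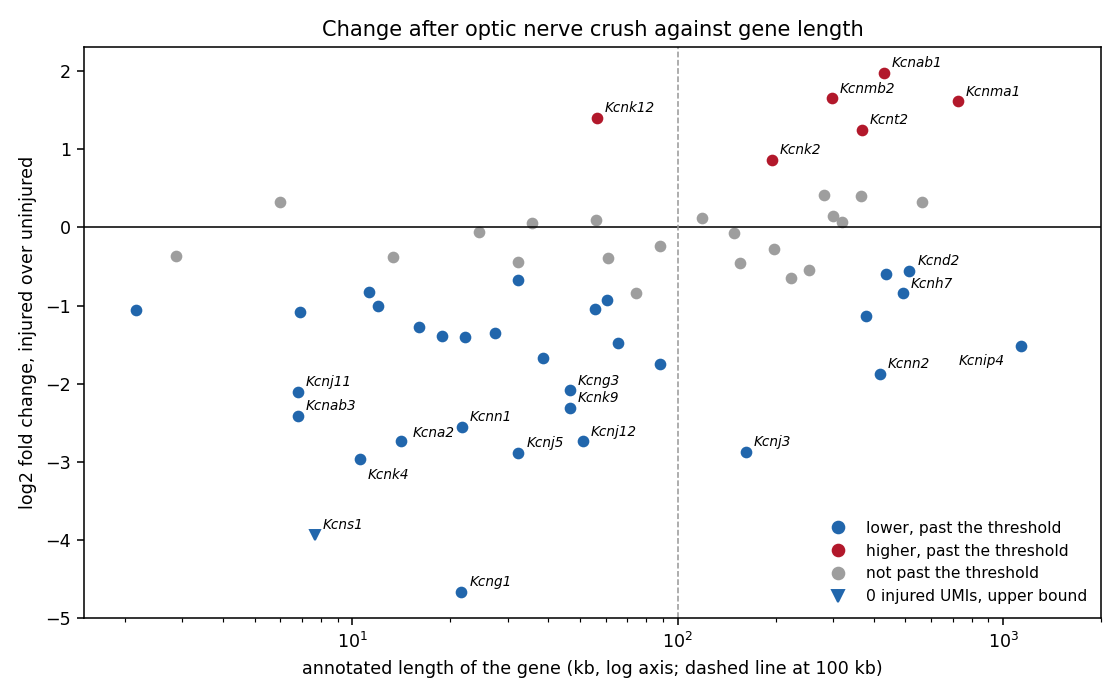
Log2 fold change (injured over uninjured) of 59 of the 63 tested members against annotated gene length in kb (log axis), coloured by whether each passed the threshold, with Kcns1 at its upper bound. Of the 6 higher members 5 lie to the right of the dashed line at 100 kb, and 25 of the 32 lower members drawn lie to its left.

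On GRCm39 these members lay as follows: Kcnma1 at chr14:23339499-24064559 (minus strand), Kcnab1 at chr3:64856617-65285647 (plus strand), Kcna2 at chr3:107008237-107022321 (plus strand) and Kcnj3 at chr2:55325801-55488157 (plus strand). Kcna1, Kcna5 and Kcna6 lie close together on chromosome 6, from 126509514 to 126717644, and Kcna6 alone of them was lower. Annotated overlap with another gene was common: 33 members overlapped a gene on the opposite strand and 4 a gene on the same strand (34 with either). Whether counting used strand is not stated beyond the default alignment parameters that the study gives. How far reads of such pairs were told apart was not tested. Kcnab1 spans A330015K06Rik, which had 512 counts and 4.02 and 11.7 CPM in uninjured and injured samples. Kcnab2 overlaps Chd5 (78.2 and 33.0 CPM) and Nphp4 (7.50 and 3.28 CPM). Kcnk4 overlaps Catsperz on its own strand (2.38 and 0.133 CPM). The untested Kcnrg, at 0.916 ± 0.434 to 2.35 ± 0.694 CPM, overlaps Dleu2, which had 5.67 and 70.5 CPM.

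Over the 26 partner proteins of K+ channels, 14 of 22 tested were lower, 2 higher and 6 did not pass, with a median log2 fold change of -0.64. Besides those above, the scaffolds Dlg1 (-0.75) and Dlg4 (-0.66) were lower, while Dlg2 (0.35 ± 0.18) and Fgf14 (-0.15 ± 0.18) did not pass. A second list held 18 other carriers of K+ current or transport, with 7 of 16 tested lower, 1 higher and 8 not past, and a median of -0.52. Over all tested genes 22.7% were lower and 21.3% higher, with a median of -0.03. Slc12a5, which extrudes K+ and Cl- and keeps inhibition hyperpolarizing, ran from 281 to 692 CPM in uninjured samples (median 343) and was 43.6, 36.4 and 29.1 CPM in injured samples. It fell by 3.56 ± 0.38 on the log2 scale (adjusted p = 1.59e-05). The sodium pump subunits Atp1b2 (-2.58) and Atp1b3 (-0.60) were lower and Atp1b1 did not pass (-0.31 ± 0.17). Among hyperpolarization-activated channels, Hcn2 was lower (-0.89) and Hcn3 and Hcn4 did not pass.

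Markers checked the RGC label and other retinal classes in the same samples. The 8 RGC markers summed to 6840.0 ± 1023 and 4917 ± 587 CPM in uninjured and injured samples, with 5 lower and 1 (Tubb3) higher. By mean CPM, Sncg was the highest in uninjured and Tubb3 in injured samples. Nefl exceeded Sncg in uninjured 2 to 4 and Tubb3 in injured 1 and 2. The 10 markers of RGC subtypes summed to 829 ± 332 and 241 ± 86.2 CPM, and 5 of 9 tested were lower and 0 higher. Cartpt, at 564 ± 318 to 41.7 ± 9.27 CPM, held 61.6% of the summed CPM over all samples. Spp1 went the other way, at 21.6 ± 24.7 to 92.6 ± 77.6 CPM, and did not pass. Lower subtype markers, Cartpt most of all by CPM, thus accompanied the lower channel genes, and their part in the channel results was not tested. Kcng4, the channel gene that marks alpha RGCs, fell below the minimum and was not tested, at 0.989 ± 1.10 to 0.519 ± 0.291 CPM, with UMIs in 0 to 17 cells a library.

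The 8 amacrine markers summed to 195 ± 81.6 and 333 ± 53.7 CPM, with C1ql2 (17.6 ± 7.14 to 196 ± 17.4 CPM) and Slc6a9 (6.02 ± 3.79 to 20.6 ± 1.53 CPM) higher. The other 6, among them the defining Gad1, Gad2 and Tfap2a, had negative log2 fold changes and did not pass. Müller glia markers summed to 145 ± 27.2 and 124 ± 15.5 CPM, with Dkk3 (87.7 ± 16.4 to 15.6 ± 4.44 CPM) and Apoe lower and Glul, Rlbp1 and Sox9 higher. Bipolar (2.00 ± 1.34 and 0.893 ± 0.418 CPM), rod and cone (8.36 ± 7.94 and 8.27 ± 11.5 CPM), horizontal (27.0 ± 15.9 and 7.25 ± 2.80 CPM), astrocyte (11.7 ± 8.44 and 6.50 ± 0.597 CPM), microglia and macrophage (9.49 ± 5.18 and 12.9 ± 5.94 CPM), endothelial (1.61 ± 1.48 and 2.48 ± 1.54 CPM) and pericyte markers (1.04 ± 1.34 and 0.296 ± 0.273 CPM) were low, and Vsx1, Lhx1 and Cdh5 were at 0 UMIs. The higher amacrine sum lay in C1ql2 and Slc6a9, the horizontal sum was Onecut1 alone (lower), and Cx3cr1 of microglia was higher (3.39 ± 1.44 to 9.66 ± 6.01 CPM). The part of these markers in the channel results was not tested. Channels that mark other cells were also near 0: Kcnj10 of Müller glia at 0.121 ± 0.241 CPM uninjured and 0 injured, Kcnj8 of pericytes at 0 in both, and Kcnk13 of microglia at 0.329 ± 0.250 to 0.608 ± 0.431 CPM. With cells left out that carried at least 3 markers of another class, 40 of 61 tested members passed, 34 lower and 6 higher, beside 22.4% of all genes lower and 21.7% higher.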

How the data were processed

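UMI counts per cell and gene were deposited as raw counts for 10 libraries, 6 uninjured and 4 injured. The authors aligned reads to mm39 with Cell Ranger (7.0.1 in the sample records, an earlier version in the paper) and kept cells that had 500 genes or more, no more than 150000 UMIs and 20% of them mitochondrial, and 4 pan-RGC markers. The UMI limit was their step against doublets, and no other was taken here. The other deposited files list barcodes and gene symbols and hold no values. Per library, the counts of all cells were added up, and injured 3 and 4 were averaged.

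Conditions were compared with edgeR 4.0.16 (filterByExpr, TMM factors, quasi-likelihood test, robust fit, condition only; R 4.3.3), and two-sided p-values were adjusted by Benjamini-Hochberg over 14234 genes, threshold 0.05. Log2 fold changes are injured over uninjured, with their standard errors. CPM are given with the SD over 6 uninjured and 3 injured samples. A single gene was also tested by the exact two-sided permutation test on log2(CPM + 0.5). Cells were thinned to 8000 UMIs with random seed 1. Alternatives used DESeq2 1.42.0, limma 3.58.1, other scalings, filters, cells and samples.

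Named members were the most abundant of each subfamily, the 10 largest rises and falls among members past the threshold at 5 CPM or more, and channels chosen by role, among them Kcna1, Kcna2, Kcnab2, Kcnq3, Kcng4, Kcnj8, Kcnj10 and Kcnk13. Some genes are left out of the text and figures but not of the counts. Of rises, 5 qualified. Members and lists were chosen with earlier results of these data known. Gene positions and starts are from GENCODE on GRCm39, the files' build. Python 3.11.15, numpy 2.4.6, scipy 1.17.1, pandas 2.3.3 and matplotlib 3.10.9 were used.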

Additional observations from a re-analysis of the deposited data

Results flagged for a closer look

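Among 44 sets of uninjured values checked for a sample far from the others, 1 had such a sample, where chance gives about 1 in 20. Kcnj10, the channel of Müller glia, was at 0.602 CPM in uninjured 3, and the nearest other uninjured sample was at 0.123 CPM. The gene was at or near 0 in every sample and was not tested.

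A transcript of mCherry, which no sample label names and no comparison uses, was found in 7.99% of cells in injured 1, 15.0% in injured 2, 86.0% in injured 3 and 84.3% in injured 4, and in 0 cells of the uninjured libraries. The study used mCherry-expressing viral vectors in its regeneration experiments. It moves with the condition, and its part in the changes of potassium channel genes was not tested beyond the counts given with and without injured 3/4.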

How the results depend on the processing

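Over 26 alternatives, 27 to 47 potassium channel genes passed the threshold, beside 42. The fewest came with injured 3/4 as the only injured sample, at 27 members, of which 3 were higher, and 20.7% of all genes. That alternative leaves 1 injured sample, which is assumed to vary like the uninjured samples. Leaving out 1 library at a time, or injured 3 and 4 together, gave 33 to 42 members, 28 to 36 lower and 4 to 6 higher, and 34.5% to 45.1% of all genes.

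DESeq2 passed 43 members (and 46.1% of all genes) and limma-voom 47 (58.0%), beside 42 (44.0%). Other scalings moved the median of all genes by at most 0.07 on the log2 scale, and 42 members passed with upper-quartile factors and with library totals alone. Without a filter on low counts 41 passed (34 lower, 7 higher; 26.4% of all genes), and with at least 10 counts in every sample 28 of 43 tested (41.8% of all genes). Thinned cells gave 37 of 52 tested (40.7% of all genes), and cells with 3 to 5% Malat1 gave 28 of 43 (32.9% of all genes). Summing similar libraries, to 3 against 2 units, gave 32 (27.1% of all genes).

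Libraries 1 to 4 of each condition gave 43 members (37 lower, 6 higher) without and 43 (36 lower, 7 higher) with the replicate number as a block, and 59.0% and 55.8% of all genes. These count injured 3 and 4 as separate samples although they share cells, which overstates the number of injured samples. Same-numbered libraries were not more alike than others (correlations -0.0592, 0.0119, -0.0454 and -0.0517), so the numbers gave no sign of pairing. Because injured 3 and 4 share cells, these correlations cannot exclude a pairing.

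For the named members, 719 log2 fold changes were computed under alternatives. In 689 the call was unchanged, 24 no longer passed and 5 newly passed (Kcna1 with the block, and Kcnc2 in 4 alternatives, of which libraries 1 to 4 gave 2). Among those that had passed, 1 changed direction, Kcnb2 in cells with 3 to 5% Malat1, at 0.00852 on the log2 scale, and the cause was not tested. Of those that had not, Kcnq3 kept its direction in 22 of 26 alternatives, Kcnq1ot1 in 21 and Kcnk1 in 25, and none of the 3 passed in any. Of 64 shares of cells with a UMI (32 named genes in each condition), 54 moved by more than the SD over samples when cells were thinned, because thinned cells hold fewer UMIs.

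Depth may limit the rarest members: 15 had a mean under 5 CPM in both conditions, and 9 of them passed the threshold. The size of change that could be detected in them was not tested.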
